A study of Rattus norvegicus with 28 samples.

Results

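Leukocytes taken from rat heart allografts were measured on 4 of the 28 arrays of a series on early rejection, with 1 array from day 2, 2 from day 3 and 1 from day 4 after transplantation. They were selected by their sample titles alone, and all 14217 genes measured were followed over the days. The grafts were hearts of DA donors placed in Lewis recipients, a fully mismatched pair of inbred strains. The rats were male, and the arrays carry the label Lewis, the strain of the recipient. The other 24 arrays hold endothelial cells from normal hearts and from allografts and isografts of the same days. For those cells the heart was minced, cells bearing CD45, the protein shared by leukocytes, were pulled out with an antibody and magnetic beads, and cells bearing CD31 were then collected. The labels say neither how the leukocytes of these arrays were collected nor whether several rats were pooled for an array. Leukocytes of isografts or of blood were not analysed here, so a difference between days has no ungrafted or matched control.

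An organ from a mismatched donor is entered first by neutrophils and monocytes, which follow chemokines released by the injured tissue, and then by T cells and natural killer (NK) cells of the recipient. Activated T and NK cells release interferon-gamma and kill with perforin and granzymes. Interferon-gamma acts on macrophages and on tissue cells, which in turn make the chemokines Cxcl9, Cxcl10 and Cxcl11, raise antigen presentation and switch on guanylate-binding proteins.

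The values are log2 signals, on which a difference of 1 is a 2-fold difference in signal, and the 4 arrays had medians of 6.83 to 6.88 over all probe sets. The only replicate pair was that of day 3. Its arrays were at least 2-fold apart in 300 genes, 194 of them higher in replicate 2 (1.36% of all genes) and 106 higher in replicate 1 (0.746%), against 337 genes between day 2 and day 4. Across genes, which are not independent replicates, the day 3 pair had r = 0.989 and the arrays of day 2 and day 4 r = 0.985. A gene was counted as higher or lower in steps where day 4 and day 2 were at least 1 log2 apart, the day 3 mean lay between them, and the difference was larger than the gap of the day 3 pair. It was counted as high or low on day 3 where both day 3 arrays were at least 1 log2 above or below both other arrays. These counts are descriptions. A test was had only by fitting limma to all 28 arrays, which assumes that a lone leukocyte array varies like the replicated groups, and "rose" and "fell" are kept for genes with an adjusted p under 0.05 in that fit. They compare 1 array with 1 array, on a spread taken mainly from endothelial replicates. A limma fit to the 4 leukocyte arrays alone gave 0 calls, with 1321 genes at an unadjusted p under 0.05, and 0 again with day as a linear term, with 690.

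The arrays carried the marker genes of leukocytes at high levels. The CD45 gene Ptprc read 12.36 on day 2, 12.69 and 12.64 on day 3 and 12.65 on day 4, against 5.78 in normal heart endothelium after the shift of 0.34 log2 between the separately normalised sets was taken out. The macrophage surface gene Adgre1 read 11.32, then 11.64 and 11.002, then 11.86. S100a9, an abundant calcium-binding protein of neutrophils and monocytes, stayed between 12.23 and 12.59. The T cell receptor chain Cd3g read 10.66, then 11.04 and 11.87, then 11.27, and the killer protease granzyme A (Gzma) 8.92, then 9.63 and 10.78, then 9.79. All 4 lay above their levels in normal endothelium, which were 4.40 to 5.96. The macrophage list had array medians of 12.58 to 13.09.

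Both day 3 arrays also carried more RNA of heart cells than the arrays of day 2 and day 4. The median of 16 endothelial marker genes was 8.71 on day 2, 9.98 and 10.51 in replicates 1 and 2 of day 3, and 8.71 on day 4. That of 17 heart muscle genes was 6.22, 7.10, 8.02 and 6.16 in the same order. All 16 endothelial genes and 13 of the 17 heart muscle genes were higher in both day 3 arrays than on both other days, which held for 23.3% of all genes. Cardiac myosin Myh7, for example, read 5.51 on day 2, 7.09 and 8.57 on day 3 and 5.23 on day 4. Haemoglobin beta (Hbb), a red cell transcript, read 12.31, then 14.14 and 13.42, then 11.67. It was 1 of 9 erythroid genes measured, of which 4 were higher in both day 3 arrays than on both other days. The median of the 9 differed from day 2 by 0.03 and -0.19 log2 in day 3 replicates 1 and 2. In bulk RNA, more cells of a type and more RNA per cell cannot be told apart.

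**Figure D1:**
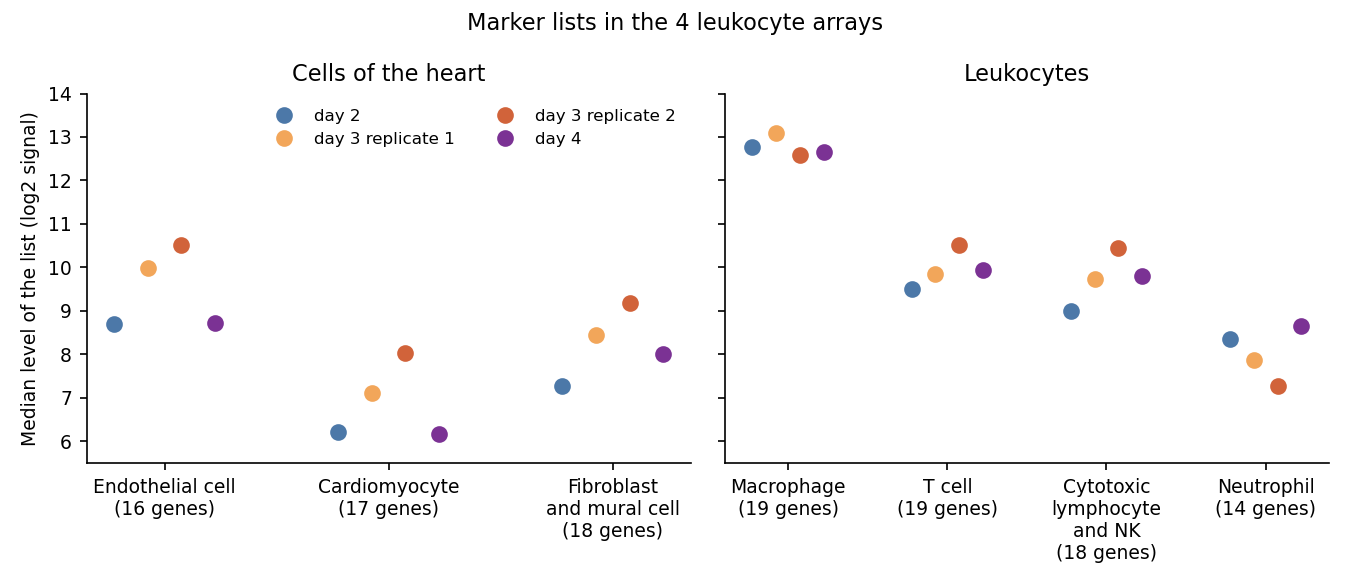
Median log2 signal of marker lists for cells of the heart (left) and for leukocytes (right) in each of the 4 leukocyte arrays, with the number of genes per list. Each point is 1 array; the endothelial and heart muscle lists stand highest in the day 3 arrays (9.98 and 10.51 for endothelium) and are level between day 2 and day 4 (8.71 on both).

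Of all genes, 152 were high on day 3 (1.07%) and 3 were low on day 3 (0.0211%). The high ones were led by Rbp7, Cavin2, Cyyr1, Clec14a, Pcdh17 and Aplnr, which are transcripts of capillary endothelium. Clec14a, an endothelial surface lectin, read 6.87 on day 2, 9.49 and 10.52 on day 3 and 7.50 on day 4. Among the 152 genes, 98.7% had a mean over days 2 and 4 below their level in normal heart endothelium, against 48.5% of all genes. The rule for high on day 3 uses the same day 2 and day 4 arrays, so this share is partly fixed by the choice of genes. Of the 152, 147 were higher in day 3 replicate 2 than in replicate 1, as were 8099 of all 14217 genes. Among the 7316 genes whose mean over days 2 and 4 lay above normal endothelium, 2 were high on day 3, Myh7 and Tnc, and 3 were low. The same limit holds for these counts. Set against day 2, the day 3 mean was at least 2-fold higher in 620 genes (4.36%) and lower in 65 (0.457%), and day 4 was at least 2-fold higher than the day 3 mean in 137 (0.964%) and lower in 404 (2.84%). As the endothelial and heart muscle lists stood highest in the day 3 arrays, day 4 is set against day 2 in what follows. The day 3 arrays serve as the spread and as a check of order.

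Between day 2 and day 4, 246 genes were at least 2-fold higher (1.73%) and 91 at least 2-fold lower (0.64%). In steps, 143 genes were higher (1.01%) and 68 lower (0.478%). Of these, 100 and 60 averaged above normal heart endothelium over days 2 and 4, as did 7316 of all 14217 genes. The larger part of the difference lay after day 3 in 92 of the 143 and in 43 of the 68. The 15 largest increases in steps were Socs1, Samhd1, Ubd, Ido1, Fbxo27, Cnn3, Vcam1, Cxcl10, Ifit2, Cxcl13, Gzmb, Herc6, Npy1r, Hivep1 and Igtp, among which stand known interferon targets and effector genes of immune cells. Of these 15, Cnn3, Vcam1, Ifit2, Herc6 and Hivep1 did not average above normal endothelium. The part of heart cell RNA in these differences was not tested. The 15 largest decreases were Cxcl3, Lyve1, Gdf15, Angptl4, Adam8, Cyp11b1, Spp1, Kctd4, Shcbp1, Vegfa, Fam111a, Ccnb2, Dgat2, Smpd3 and Bub1b, among which stand products of inflammatory and tissue-repair macrophages and genes of cell division.

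**Figure D2:**
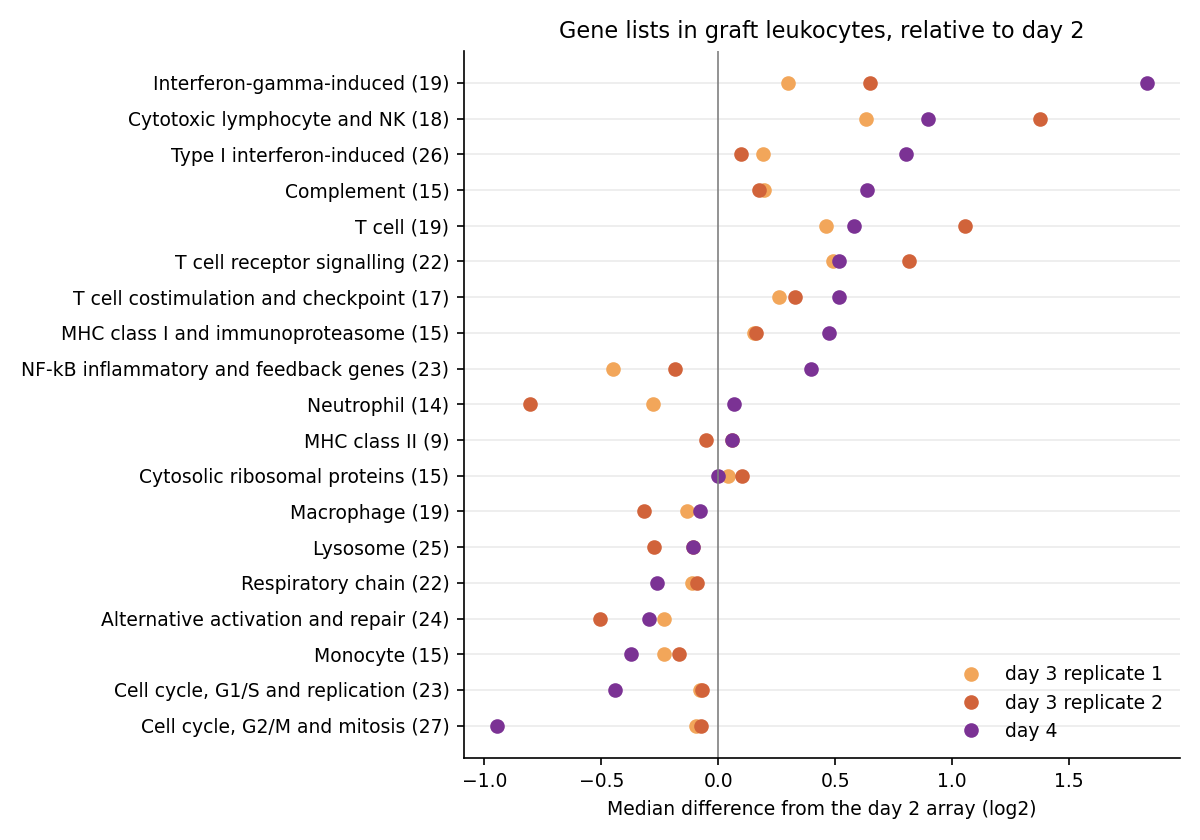
Median difference from the day 2 array (log2) over the members of 19 gene lists, for day 3 replicate 1, day 3 replicate 2 and day 4, with the number of genes in brackets. Interferon-gamma-induced genes lie farthest right on day 4 (1.83) and mitotic genes farthest left (-0.95), while both day 3 arrays stay near 0 for the mitotic genes.

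Interferon-gamma-induced genes showed the largest shift of all 40 lists. Of 19 measured out of 25 listed, 15 were at least 2-fold higher on day 4 than on day 2 and none was 2-fold lower, 13 were higher in steps, and the median difference was 1.83 log2 against -0.04 over all genes. In 16 of the 19, day 4 stood above all 3 other arrays, as in 19.0% of all genes. Socs1, the feedback inhibitor of interferon receptors, read 6.61 on day 2, 7.27 and 7.29 on day 3 and 9.79 on day 4, a 9.03-fold difference. Its day 3 arrays were 0.02 log2 apart, with their mean 0.66 log2 above day 2, and the larger step came after day 3. Batf2, a transcription factor of interferon-activated macrophages, read 7.73, then 7.75 and 7.57, then 10.52 (2.79 log2). The indoleamine dioxygenase Ido1, which breaks down tryptophan, read 6.55, then 7.09 and 8.56, then 9.17. Its day 3 arrays were 1.47 log2 apart, and day 4 lay above both. The ubiquitin-like modifier Ubd read 10.19, then 11.84 and 13.01, then 12.85, and day 3 replicate 2 was above day 4. Of the 19 genes, 18 averaged above normal heart endothelium over days 2 and 4. In allograft endothelium of day 4, after the shift, Ubd read 14.46 and Ido1 11.39, above the day 4 leukocyte array. Socs1 at 8.83 and Cxcl10 at 13.01 read below that array. The part of heart cell RNA in these differences was not tested.

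Chemokines that draw T cells through the receptor Cxcr3 were among these genes. Cxcl10 read 11.45 on day 2, 11.35 and 11.85 on day 3 and 13.70 on day 4, a 4.76-fold difference. Cxcl11 read 11.83, then 11.42 and 12.07, then 13.81, and Cxcl9 read 10.91, then 11.44 and 12.44, then 12.74. In each of the 3, day 4 was the highest array. The receptor Cxcr3 itself read 9.57, then 10.18 and 10.81, then 10.06.

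The GTPases that attack intracellular microbes stood higher as well. Igtp read 10.34, then 10.72 and 10.99, then 12.31, and Gbp2 12.01, then 11.99 and 12.47, then 13.65. Irgm read 10.65, then 10.84 and 10.81, then 12.62, and it was the only member of this list that rose in the limma fit (1.97 log2, SE 0.44, adjusted p = 0.0495). That fit called 40 genes higher (0.281%) and 15 lower (0.106%) between day 2 and day 4. The median SE was 0.61 log2 over this list against 0.29 log2 over all genes. Without allograft endothelium day 4 replicate 3, it called 70 genes higher. Nos2, which makes nitric oxide in activated macrophages, read 8.57, then 8.22 and 8.08, then 8.41, and Ccl5 11.28, then 12.11 and 13.15, then 11.59. Nos2 was the 1 listed gene with a lower value on day 4 than on day 2, and Ccl5 was highest on day 3.

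Type I interferon-induced genes were higher on day 4 to a smaller extent. Of 26 measured out of 30 listed, all had a higher value on day 4 than on day 2, against 6238 of all 14217 genes. The difference was at least 2-fold in 10 and in steps in 7, with a median of 0.80 log2. In 24, day 4 was the highest array. Of the 26, 9 averaged above normal heart endothelium over days 2 and 4, against 7316 of all genes. Among these 9, 4 were at least 2-fold apart and 2 in steps. Ifit2 (12.30 in normal endothelium) and Herc6 (8.58) were not among the 9, and the part of heart cell RNA was not tested. Ifit2, which binds viral RNA, rose from 10.66 on day 2 through 11.23 and 11.42 to 12.88 on day 4 (2.22 log2, SE 0.35, adjusted p = 0.0043). Herc6 read 6.64, then 7.52 and 7.68, then 8.72, and Isg15 11.09, then 11.02 and 11.19, then 12.66. Samhd1, an enzyme that restricts viruses by removing nucleotides, was outside the lists and rose from 10.17 through 10.77 and 10.76 to 13.03 (2.86 log2, SE 0.53, adjusted p = 0.0178). Dtx3l and Parp9, partner proteins that interferons induce, rose as well, Dtx3l from 10.26 through 10.84 and 10.88 to 11.999 (1.74 log2, SE 0.35, adjusted p = 0.0287) and Parp9 from 10.31 through 10.56 and 10.77 to 11.63 (1.33 log2, SE 0.29, adjusted p = 0.0464).

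Promoters of interferon-gamma genes are shown because these genes stood higher together and interferons act through known DNA elements. The 4 are those with the largest difference among members higher in steps with a promoter in the RefSeq table, which leaves out Batf2, whose day 3 mean was below day 2, and Ido1, which was not matched. Each is the 250 bases before the RefSeq start in the rat build GRCr8, read on the gene's strand, with matches to the gamma-activated site (GAS, TTCNNNGAA) or the interferon-stimulated response element (TTTC, 2 free bases, TTTC) in capitals, either strand counted. They lie at chr10:5389324-5389573 (plus strand, Socs1), chr20:1392686-1392935 (minus strand, Ubd), chr14:15988816-15989065 (plus strand, Cxcl10) and chr10:42874797-42875046 (plus strand, Igtp).
Socs1: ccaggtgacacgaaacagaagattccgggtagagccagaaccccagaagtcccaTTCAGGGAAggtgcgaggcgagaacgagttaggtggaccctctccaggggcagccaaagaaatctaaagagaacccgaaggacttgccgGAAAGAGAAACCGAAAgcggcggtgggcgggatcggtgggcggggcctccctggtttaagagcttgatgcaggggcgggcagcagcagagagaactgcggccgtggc
Ubd: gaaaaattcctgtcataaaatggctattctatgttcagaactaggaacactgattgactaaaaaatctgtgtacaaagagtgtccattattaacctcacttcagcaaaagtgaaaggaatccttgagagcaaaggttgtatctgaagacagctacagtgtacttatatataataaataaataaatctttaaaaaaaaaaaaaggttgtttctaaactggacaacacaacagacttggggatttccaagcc
Cxcl10: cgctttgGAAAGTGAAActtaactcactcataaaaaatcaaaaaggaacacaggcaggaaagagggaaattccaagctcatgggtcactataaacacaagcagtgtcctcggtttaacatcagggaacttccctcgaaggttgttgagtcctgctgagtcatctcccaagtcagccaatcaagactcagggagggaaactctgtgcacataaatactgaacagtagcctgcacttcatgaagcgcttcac
Igtp: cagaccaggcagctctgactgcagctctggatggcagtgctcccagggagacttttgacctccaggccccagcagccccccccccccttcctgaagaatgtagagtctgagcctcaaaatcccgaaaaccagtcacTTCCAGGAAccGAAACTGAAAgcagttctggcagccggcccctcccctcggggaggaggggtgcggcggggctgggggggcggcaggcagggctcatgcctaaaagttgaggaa
The Socs1 window holds 1 GAS and 2 overlapping response elements, that of Igtp holds 1 of each, that of Cxcl10 holds 1 response element, and that of Ubd holds no match. Of the 12 interferon-gamma-induced genes with a promoter in the RefSeq table, 41.7% held a GAS and 58.3% a response element, and of 17 type I genes 29.4% and 64.7%. Among all 27455 promoters of the same length the shares were 7.53% and 3.29%, and among the 11733 of measured genes 6.13% and 2.65%. A match is a run of letters, and binding was not measured.

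**Figure D3:**
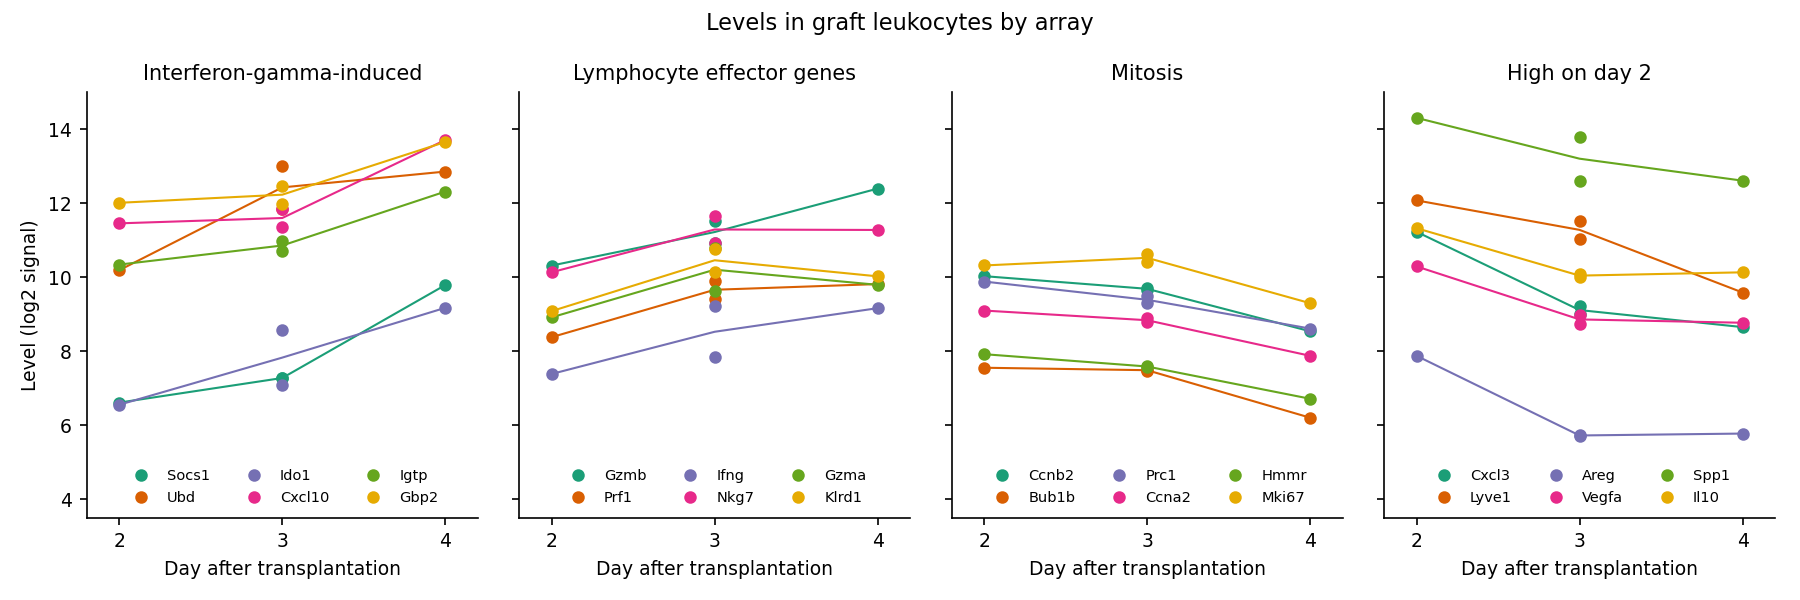
Log2 signal by day after transplantation in graft leukocytes for 6 genes of each of 4 groups. Points are single arrays (1 on day 2, 2 on day 3, 1 on day 4) and lines join the day means; interferon-gamma targets climb to day 4 (Socs1 from 6.61 to 9.79), mitotic genes drop after day 3 (Ccnb2 to 8.54), and Cxcl3, Areg and Vegfa drop before day 3.

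Genes of killer lymphocytes were higher on days 3 and 4 than on day 2. Of 18 measured cytotoxic and NK genes, 6 were at least 2-fold higher on day 4, 2 in steps, none was 2-fold lower, and the median difference was 0.90 log2. Day 2 was the lowest array in 15 of the 18, against 27.2% of all genes. Granzyme B (Gzmb), the protease that starts death of target cells, read 10.31 on day 2, 10.92 and 11.52 on day 3 and 12.39 on day 4, a 4.22-fold difference. The pore protein perforin (Prf1) read 8.38, then 9.41 and 9.90, then 9.81, so that day 4 lay within the day 3 pair. Nkg7, a protein of killer granules, read 10.13, then 10.92 and 11.65, then 11.27. The transcription factor Eomes read 6.52, then 7.47 and 7.62, then 7.53. Gzmb was thus higher on day 4 than in either day 3 array, while Prf1, Nkg7 and Eomes were level between those days within the gap of the day 3 pair. Outside the list, the NK receptor Klre1 rose from 7.38 through 8.83 and 9.42 to 8.84 (1.46 log2, SE 0.32, adjusted p = 0.0469).

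Cytokines of these cells followed the same order in part. Interferon-gamma (Ifng) itself read 7.39 on day 2, 7.83 and 9.22 on day 3 and 9.16 on day 4 (3.43-fold), and its day 3 arrays were 1.38 log2 apart. Lymphotoxin (Lta), another product of activated lymphocytes, read 6.54, then 6.71 and 7.38, then 7.60. The death ligand Tnfsf10 (TRAIL) rose from 7.33 through 9.72 and 10.95 to 10.22 (2.89 log2, SE 0.57, adjusted p = 0.0254). Normal heart endothelium held Tnfsf10 at 11.10, above all 4 leukocyte arrays, and the part of heart cell RNA in its difference was not tested. Interleukin-2 (Il2) stayed between 6.46 and 6.97, and Il4, Il5, Il13 and Il17f stayed at or below 5.34, near the dim end of the arrays.

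T cell genes shifted less than killer genes. Of 19 measured T cell genes, 17 had a higher value on day 4 than on day 2, against 6238 of all 14217 genes. None reached 2-fold, and the median difference of these T cell genes was 0.58 log2. They were highest in day 3 replicate 2, where their median was 1.06 log2 above day 2. Cd4 read 10.46, then 10.92 and 8.76, then 11.07, and Cd8a 11.72, then 11.26 and 11.35, then 11.54. The T cell receptor kinase Zap70 read 9.80, then 10.46 and 10.98, then 10.45, and the interleukin-2 receptor chain Il2rb, shared by T and NK cells, 9.92, then 10.92 and 11.29, then 11.07. Day 2 was the lowest array for both. Cd4 in day 3 replicate 2 stood apart from the 3 other arrays, and macrophages of the rat carry CD4 too. Among costimulatory genes, Cd40, through which T cells license antigen-presenting cells, rose from 9.38 through 9.64 and 9.78 to 11.23 (1.85 log2, SE 0.41, adjusted p = 0.0469). The inhibitory receptor Ctla4 read 8.04, then 9.02 and 7.97, then 9.52, and the activation antigen Cd69 read 11.77, then 12.02 and 12.97, then 12.84. The first 2 were highest on day 4, while Cd69 on day 4 lay within the day 3 pair.

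Of 15 B cell genes measured, 3 were at least 2-fold higher on day 4, or 20.0% against 1.73% of all genes. Pou2af1, a coactivator of B cells, read 5.49, then 6.92 and 7.17, then 7.07. The antibody joining chain Jchain read 8.54, then 9.68 and 8.34, then 10.11, and Ms4a1 (CD20) 6.33, then 7.42 and 7.67, then 7.34. Day 2 was below both day 3 arrays and day 4 in Pou2af1 and Ms4a1 but not in Jchain, and the median of the list was 0.15 log2. A lower value on day 4 than on day 2 was found in 5 of the 15, none by 2-fold. Among these, Sdc1 read 10.62, then 10.23 and 9.28, then 9.83, and Blnk 11.47, then 11.54 and 10.83, then 10.79. Outside the list Bank1, a B cell scaffold protein, rose from 6.83 through 7.25 and 7.37 to 8.42 (1.59 log2, SE 0.35, adjusted p = 0.0469).

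Of 19 macrophage genes, none was 2-fold higher and only Spp1 was 2-fold lower on day 4, with a median of -0.08 log2 and a range of -1.70 to 0.96 log2. The highest were the chains of C1q, which macrophages make to mark debris for uptake: C1qc read 12.09, then 13.16 and 12.49, then 13.05, and C1qa 12.76, then 13.55 and 12.98, then 13.55. Csf1r, the receptor for the macrophage growth factor, read 12.64, 12.73, 12.58 and 12.66 over the 4 arrays. Circulating monocyte genes were somewhat lower on day 4, with a median of -0.38 log2 over 15 genes and none at 2-fold: the chemokine receptor Ccr2, which brings monocytes into tissue, read 11.88, then 11.24 and 9.75, then 11.32. Ccr2 was lowest in day 3 replicate 2, while the monocyte list had array medians of 12.01, 12.14, 12.25 and 11.51. Of 9 MHC class II genes measured, none differed by 2-fold, and the invariant chain Cd74 read 14.32, 14.53, 14.31 and 14.47. These genes had a median level of 13.93, with mean levels of 12.55 to 14.53, and the highest mean level of any gene was 14.80. Whether the top of the range limited their differences was not tested. MHC class I presentation differed more, with a median of 0.47 log2 over 15 genes, of which 14 were highest on day 4. The peptide transporter Tap1 read 11.35, then 11.59 and 11.70, then 12.82, and Nlrc5, the activator of class I genes, 7.26, then 7.65 and 8.15, then 8.86. These were the only class I members with a 2-fold difference.

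Recognition and complement genes of phagocytes gave a few larger differences. The activating Fc receptor Fcgr3a read 11.23, then 11.91 and 11.27, then 12.50, and was the only one of 21 phagocytosis genes at least 2-fold higher. Of 15 complement genes, 4 were at least 2-fold higher and none lower, with a median of 0.64 log2. The C1 inhibitor Serping1 read 8.84, then 9.83 and 10.33, then 10.69, and the protease C1s 7.13, then 9.13 and 9.87, then 9.30. C1s is also made by fibroblasts, and fibroblast and mural cell genes were higher on day 4 than on day 2. Of 18 such genes, 8 were at least 2-fold higher, with a median of 0.95 log2 and array medians of 7.28, 8.45, 9.18 and 8.001. Among them the matrix protein Postn read 6.40, then 9.76 and 9.73, then 8.98. The part of these cells in the other differences was not tested. The endothelial and heart muscle lists did not share this shift, with medians of 0.18 and -0.11 log2.

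Of 14 neutrophil genes, day 4 was the highest array in 9 (64.3%, against 19.0% of all genes), with a median difference from day 2 of 0.07 log2. The chemokine receptor Cxcr2 read 8.70, then 8.04 and 7.33, then 9.25, and the growth factor receptor Csf3r 11.04, then 10.47 and 10.23, then 11.09. Both were lower in each day 3 array than on the other days. The decoy receptor for interleukin-1, Il1r2, read 11.46, then 10.25 and 10.32, then 10.25, and Cxcr1 read 6.45, then 5.37 and 5.12, then 5.44. These 2 were the members with a 2-fold difference, both lower on day 4 than on day 2, and the granule genes Camp and Lcn2 were dim at 5.05 to 5.49 and 4.79 to 5.41.

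The neutrophil attractant Cxcl3 and the growth factor amphiregulin fell after day 2. Cxcl3 fell from 11.22 on day 2 to 9.01 and 9.21 on day 3 and 8.65 on day 4 (-2.57 log2, SE 0.48, adjusted p = 0.0178). The epidermal growth factor family member amphiregulin (Areg) fell from 7.88 to 5.74 and 5.71, then 5.78 (-2.10 log2, SE 0.26, adjusted p = 3.66e-04). Areg was level after day 3, while Cxcl3 on day 4 lay below both day 3 arrays. Related attractants were bright and differed little: Cxcl1 read 14.27, 13.70, 13.86 and 13.86, and Cxcl2 14.09, 13.79, 13.83 and 13.70. Over all 27 chemokines 6 were at least 2-fold higher on day 4 and 2 at least 2-fold lower, the second of them Ccl17, which draws helper T cells (9.69, then 9.74 and 9.29, then 8.68).

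Of 24 genes of alternative activation and repair, none was 2-fold higher on day 4 and 4 were 2-fold lower, with a median of -0.30 log2, and day 2 was the highest array in 12, or 50.0% against 36.3% of all genes. Lyve1, a hyaluronan receptor of resident cardiac macrophages and of lymph vessels, read 12.07, then 11.52 and 11.03, then 9.59, a 5.61-fold difference. Osteopontin (Spp1) read 14.30, then 13.79 and 12.61, then 12.61, and the vessel growth factor Vegfa 10.29, then 8.98 and 8.74, then 8.77. The anti-inflammatory cytokine Il10 read 11.32, then 10.07 and 10.01, then 10.13. For Vegfa and Il10 the difference lay before day 3 and the later arrays were level, whereas Lyve1 was lowest on day 4. Arginase (Arg1), which competes with nitric oxide synthesis, read 11.88, then 10.60 and 9.91, then 11.17, so that day 4 lay above both day 3 arrays.

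The lysosomal cathepsin Ctsl fell from 13.81 through 13.34 and 13.27 to 12.77 (-1.05 log2, SE 0.18, adjusted p = 0.0078), and it was the only one of 25 lysosomal genes with a 2-fold difference. The sheddase Adam8 read 10.59, then 9.65 and 9.34, then 8.83. The fructose transporter Slc2a5 fell from 8.46 through 8.20 and 7.88 to 7.20 (-1.26 log2, SE 0.22, adjusted p = 0.0105).

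A further 3 genes were low on day 3 alone, namely Il1a, F3 and Ptgs2, early products of activated monocytes. Interleukin-1 alpha (Il1a) read 12.36 on day 2, 9.54 and 10.39 on day 3 and 11.69 on day 4. Tissue factor (F3), which starts coagulation, read 7.28, then 6.01 and 6.12, then 9.64. Cyclooxygenase-2 (Ptgs2) read 11.80, then 10.37 and 10.55, then 11.67. F3 was thus also the highest of the 3 on day 4 relative to day 2 (2.37 log2), while the other two read below their day 2 level on day 4. Interleukin-1 beta (Il1b) and tumour necrosis factor (Tnf) had their lowest value in day 3 replicate 1, at 13.44 and 10.12, and on day 4 read 14.10 and 11.74 against 14.14 and 11.56 on day 2. Over 23 genes of the NF-kB response, the median difference between day 2 and day 4 was 0.40 log2, 3 were at least 2-fold higher and day 4 was the highest array in 14 (60.9%). Interleukin-6 (Il6), one of the 3, read 9.47, then 8.78 and 10.004, then 10.63.

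Of 24 cell death genes, day 4 was the highest array in 16 (66.7%, against 19.0% of all genes), with a median difference of 0.48 log2. Apart from Tnfsf10, the inflammatory caspases Casp4 (9.27, then 9.31 and 9.64, then 10.79) and Casp12 (6.86, then 7.45 and 7.41, then 7.99) were the members at least 2-fold higher on day 4. The death receptor Fas read 8.68, then 8.79 and 8.79, then 9.63.

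Genes of cell division were lower on day 4 than on any other array. Of 27 measured genes of G2 phase and mitosis, 13 were at least 2-fold lower than on day 2, 11 in steps, none was higher, and the median difference was -0.95 log2. In all 27 the day 4 array was the lowest of the 4, which held for 25.7% of all genes. The day 3 arrays were close to day 2, at medians of -0.09 and -0.07 log2, so the difference lay between day 3 and day 4. Cyclin B2 (Ccnb2), which drives entry into mitosis, read 10.03 on day 2, 9.71 and 9.66 on day 3 and 8.54 on day 4, a 2.81-fold difference. The checkpoint kinase Bub1b read 7.55, then 7.47 and 7.50, then 6.20. Prc1, which bundles the microtubules of the dividing cell, read 9.88, then 9.48 and 9.30, then 8.61. The proliferation antigen Mki67 read 10.32, then 10.62 and 10.42, then 9.30. In these 4 genes the day 3 pair differed by 0.20 log2 or less, well under the difference between day 3 and day 4. No member passed the limma fit, in which the list had a median SE of 0.61 log2 (adjusted p = 0.589 for Ccnb2 and 0.406 for Bub1b).

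Genes of the G1 to S transition followed to a smaller extent. Of 23, day 4 was the lowest array in 22, 2 were at least 2-fold lower, and the median was -0.44 log2. These 2 were the nucleotide enzyme Tyms (7.80, then 7.44 and 7.16, then 6.61) and the replication factor Gins1 (7.98, then 7.68 and 7.55, then 6.77). The replication clamp Pcna, a bright gene, read 13.06, 12.96, 13.05 and 12.94. The oncogene Myb, a factor of dividing progenitors and lymphocytes, went the other way and rose from 6.66 through 7.08 and 7.20 to 7.73 (1.07 log2, SE 0.17, adjusted p = 0.0043).

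Promoters of 4 mitotic genes, chosen in the same way among members lower in steps, are shown with matches to the CCAAT box and the cell cycle homology region (TTTGAA) in capitals, either strand counted, since such elements are known to gate mitotic genes. They are again the 250 bases before the RefSeq start in GRCr8, at chr8:79981659-79981908 (minus strand, Ccnb2), chr3:126016817-126017066 (plus strand, Bub1b), chr1:143659231-143659480 (plus strand, Prc1) and chr10:25665216-25665465 (minus strand, Hmmr).
Ccnb2: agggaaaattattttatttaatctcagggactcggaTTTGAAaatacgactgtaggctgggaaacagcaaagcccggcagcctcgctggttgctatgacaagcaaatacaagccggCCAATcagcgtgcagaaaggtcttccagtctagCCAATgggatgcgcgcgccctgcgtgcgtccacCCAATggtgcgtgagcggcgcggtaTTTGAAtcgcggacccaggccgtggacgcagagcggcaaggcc
Bub1b: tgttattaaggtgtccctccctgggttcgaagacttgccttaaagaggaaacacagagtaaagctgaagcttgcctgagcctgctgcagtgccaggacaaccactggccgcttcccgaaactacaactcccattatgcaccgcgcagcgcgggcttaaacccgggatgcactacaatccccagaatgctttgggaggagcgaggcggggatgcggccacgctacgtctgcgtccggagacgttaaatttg
Prc1: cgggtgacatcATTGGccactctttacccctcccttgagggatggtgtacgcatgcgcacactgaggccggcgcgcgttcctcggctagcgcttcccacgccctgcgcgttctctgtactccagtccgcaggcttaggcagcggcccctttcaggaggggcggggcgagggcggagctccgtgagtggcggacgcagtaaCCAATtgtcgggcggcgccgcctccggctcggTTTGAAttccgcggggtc
Hmmr: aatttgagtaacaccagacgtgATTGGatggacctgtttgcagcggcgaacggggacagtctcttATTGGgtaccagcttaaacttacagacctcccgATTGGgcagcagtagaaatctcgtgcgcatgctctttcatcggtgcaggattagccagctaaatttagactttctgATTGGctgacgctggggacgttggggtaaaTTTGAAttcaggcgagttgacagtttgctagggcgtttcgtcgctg
The Ccnb2 window holds 3 CCAAT boxes and 2 homology regions, Prc1 2 and 1, Hmmr 4 and 1, and Bub1b no match. Of 24 mitotic genes with a promoter in the table, 83.3% held a CCAAT box and 45.8% a homology region, against 34.3% and 16.0% of all promoters. Among promoters of measured genes these shares were 35.1% and 10.9%. Of the 68 genes lower in steps, 55 had a promoter, and 54.5% and 25.5% of these held the elements.

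Of 22 respiratory chain genes all were lower in value on day 4 than on day 2, against 7967 of all 14217 genes. Their median difference was -0.26 log2, with none at 2-fold. The 15 ribosomal protein genes measured differed by -0.32 to 0.06 log2. Of 25 genes of hypoxia and glycolysis, day 4 was the highest array in 11, or 44.0% against 19.0% of all genes. Hexokinase 2 (Hk2; 8.87, then 8.86 and 7.01, then 10.10) and Pfkp (9.20, then 9.43 and 9.67, then 10.29) were at least 2-fold higher and Vegfa lower. Metallothionein Mt2A, which binds zinc, read 10.01, then 9.82 and 10.41, then 11.91.

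The 40 genes that rose and the 15 that fell in the limma fit included 24 of those higher and 9 of those lower in steps. Most of the 15 that fell read at most 5.87 on every array, near the dim end. Cnn3, an actin-binding protein, rose from 9.01 through 9.93 and 10.16 to 11.53 (2.52 log2, SE 0.39, adjusted p = 0.0041), with a level of 12.01 in normal endothelium. Hivep1, a zinc finger protein, rose from 6.93 through 8.37 and 8.37 to 8.95 (2.02 log2, SE 0.30, adjusted p = 0.0036). Slfn5, an interferon-inducible gene of T cells, rose from 10.71 through 11.49 and 11.88 to 12.02 (1.30 log2, SE 0.19, adjusted p = 0.0029). The adhesion receptor Vcam1 read 8.32, then 9.81 and 10.51, then 10.74, and missed the threshold (adjusted p = 0.0691). With only the 7108 genes above the median level tested, 15 were called higher and 2 lower.

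The same days were compared in the endothelial preparations of the allografts (3 arrays per day) to see which differences were shared. There, 68 genes rose between day 2 and day 4 (0.478%) and 0 fell, with 1182 at an unadjusted p under 0.05 in limma. The count hung on single arrays, at 430 without day 4 replicate 1, 27 without day 4 replicate 2, 15 without day 4 replicate 3, 29 without day 2 replicate 2 and 44 without day 2 replicate 3. Of the 19 interferon-gamma-induced genes 12 rose in endothelium, and their median difference was 2.27 log2 there and 1.83 log2 in leukocytes. Ido1, for example, differed by 4.69 log2 in endothelium and 2.62 in leukocytes, and Irgm by 1.55 and 1.97. MHC class II genes had a median of 1.42 log2 in endothelial preparations and 0.06 in leukocytes, and mitotic genes -0.20 and -0.95. None of the 9 class II genes passed the test in endothelium, and their leukocyte values lie near the top of the measured range. The endothelial preparations also held Ptprc, at 8.59 on day 2 and 9.23 on day 4 on the shifted scale, and the part of leukocyte RNA in these changes was not tested.

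**Figure D4:**
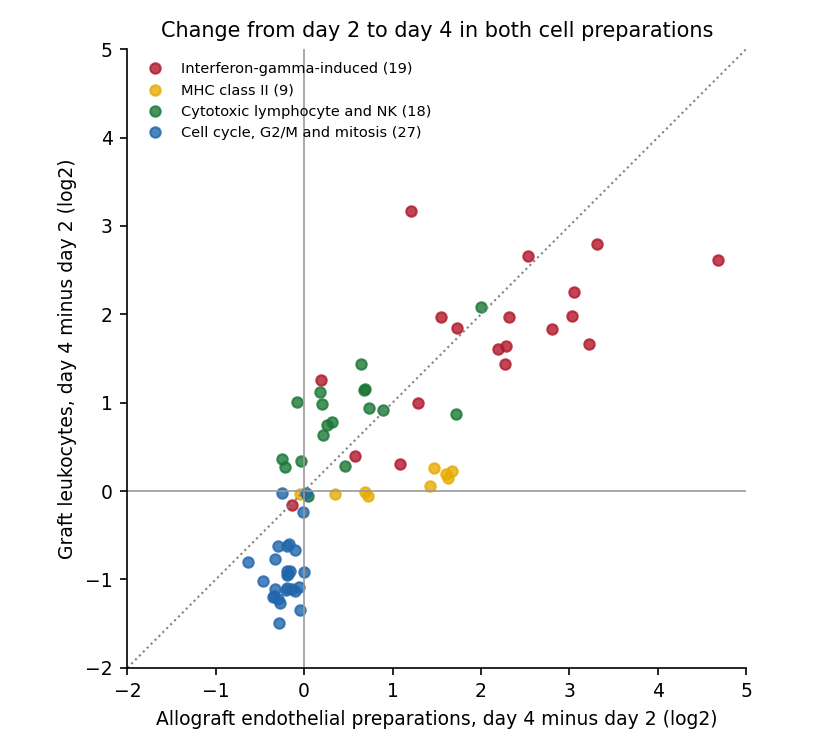
Difference of day 4 minus day 2 (log2) in allograft endothelial preparations (horizontal, 3 arrays per day) against graft leukocytes (vertical, 1 array per day) for members of 4 gene lists, each point a gene; the dotted line marks equal differences. Interferon-gamma-induced genes lie to the upper right (medians 2.27 and 1.83), MHC class II genes along the horizontal axis (1.42 and 0.06) and mitotic genes below 0 in leukocytes (-0.95).

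The difference between both changes was tested in the same limma fit. It was larger in leukocytes for 3 genes (0.0211%) and smaller for 2 (0.0141%), with 621 genes at an unadjusted p under 0.05. The 3 were Mcpt9, a mast cell protease gene, Myb and the netrin receptor gene Neo1, and the 2 were Areg and Cyp11b1, an adrenal steroid enzyme. None of the 19 interferon-gamma genes, the 9 MHC class II genes and the 27 mitotic genes passed this test, so their changes were not shown to differ between the cell preparations.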

How the data were processed

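RNA of 4 graft leukocyte samples and 24 endothelial samples was hybridised to Affymetrix rat arrays. The authors deposited log2 values made by RMA (the affy package), per the submitters' processing notes and the labels, with leukocyte and endothelial arrays in separately normalised tables. Tests were therefore made on differences within a table, and levels were set across tables only after the median difference of 0.34 log2 was removed. Separate RMA runs fix each array's distribution, so a change shared by most genes cannot be seen. The number of arrays limits the precision.

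Of 31099 probe sets, 57 were controls, 436 named several genes, 9780 had no gene listed here and 20826 had a single gene. The Entrez number of 20758 was found in RefSeq. For each of 14217 genes the probe set with the highest mean over the leukocyte arrays was kept, also where a gene had several (4525 genes). Sequences came from RefSeq promoters in GRCr8, which matched 11733 measured genes.

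Differences between days were described by the rules given with the results. limma 3.58.1 in R 4.3.3 (lmFit and eBayes, 11 group means, all 28 arrays, 17 residual degrees of freedom) tested day 4 against day 2 in leukocytes, in allograft endothelium, and the difference of both, with Benjamini-Hochberg adjustment over all genes. Nothing in the labels says that samples came from separate rats, so the spread behind each p-value may be technical. Tested on simulated data for 14217 genes, the leukocyte fit found 46% of genes changed by 1 log2 and 88% of those changed by 2 log2, with 7 false calls, and the fit of the difference 30% and 82%, with 4. The simulation drew the noise of leukocyte arrays from the spread pooled over all groups, which is the assumption of the fit itself. It therefore does not check the error rate if lone leukocyte arrays vary more. Tables and figures were made in Python 3.11.15 with pandas 2.3.3, numpy 2.4.6 and matplotlib 3.10.9.

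The samples and the 40 gene lists (937 entries, 773 measured) were chosen with earlier results of these data known, so no list is independent evidence of its direction. Genes were named by rule: the 15 largest differences in steps each way, the 6 farthest from the other days among those high or low on day 3, and of each list the 5 largest differences and the 3 highest levels, with Cd3g, Gzma, S100a9 and Adgre1. Ptprc, Myh7, Tnc, Cxcr3, Irgm, Nos2, Ccl5, Dtx3l, Parp9, Eomes, Klre1, Lta, Il2, Il4, Il5, Il13, Il17f, Cd4, Bank1, Csf3r, Camp, Slc2a5, Tnf and Slfn5 were named after their values were seen. Alternatives were another choice of probe set, another threshold, centring, a filter on dim genes, leaving out arrays, a replicate block, an intensity trend and fits to the leukocyte arrays alone.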

Additional observations from a re-analysis of the deposited data

Results flagged for a closer look

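The difference between the changes in leukocytes and in allograft endothelium passed the limma test in 5 genes. The leukocyte change minus the endothelial change was -1.89 log2 for Areg, -1.75 log2 for Cyp11b1, 1.73 log2 for Mcpt9, 1.28 log2 for Myb and 1.82 log2 for Neo1. The endothelial changes of these genes were small, at -0.21 log2 for Areg, 0.00 for Cyp11b1, -0.09 for Mcpt9, -0.21 for Myb and -0.28 for Neo1. Mcpt9 read 5.49 on day 2, 7.001 and 6.60 on day 3 and 7.13 on day 4. It was outside the list of mast cell, eosinophil and basophil genes. In that list 13 of 16 genes read lower on day 4 than on day 2, with a median of -0.14 log2. Neo1 read 7.26, then 7.43 and 7.13, then 8.80, and Cyp11b1 read 5.82, then 4.38 and 4.20, then 4.08, at the dim end of the arrays. Each leukocyte value of days 2 and 4 is a single array.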

How the results depend on the processing

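The precision of every leukocyte difference is limited by 1 array on day 2 and 1 on day 4. With a threshold of 1.5 log2, 46 genes were higher in steps, 10 lower, 38 high on day 3 and 0 low on day 3. Without a condition on the day 3 mean 236 genes were higher, and with neither day 3 array used, an alternative chosen after seeing the data, 246. Among genes above the median level 36 were lower in steps and 86 were high on day 3, limma called 15 higher and 2 lower in leukocytes, and 0 and 0 for the difference of both changes. Among genes brighter than in normal endothelium, also chosen after seeing the data, 2 were high on day 3. That split used the same day 2 and day 4 arrays as the rule for high on day 3. Centring the arrays gave 6 genes low on day 3. Leaving out a day 3 replicate gave 165 to 523 genes high and 7 to 78 low on day 3, with 523 and 78 without replicate 1. Both fits to the 4 leukocyte arrays called 0 higher and 0 lower. Leaving out single arrays gave 29 to 70 genes higher and 13 to 22 lower in leukocytes, and 15 to 430 higher and 0 to 99 lower in endothelium, 430 and 99 without day 4 replicate 1. An intensity trend gave 5 and 4 for the difference. In endothelium 1 gene was lower with the mean of all probe sets, with the trend and with the replicate block. The cause of these shifts was not tested.

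Whether equal replicate numbers mark paired endothelial arrays was not settled. Over 84 pairs of equal number the mean correlation of deviations was 0.10 (-0.35 to 0.59), with 42 over 0.1. Pairs of unequal number were not compared. With the replicate block limma called 55 genes higher and 20 lower in leukocytes, 66 and 1 in endothelium, and 4 and 2 for the difference. Of 298 named genes, 14 lost their call in the fits to the leukocyte arrays alone and 2 with the mean of all probe sets. No gene with a call in the main fit or the alternative reversed, and a change of sign without a call was not counted. Apart from the probe set choices, these fits kept the same day 4 minus day 2 difference and could not reverse it.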
